A study of Mus musculus with 29 samples.

Results

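Chromatin accessibility was compared between ON and OFF bipolar cells of the adult mouse retina by ATAC-seq, in which a transposase cuts and tags DNA where chromatin is open. All 110715 regions of 200 bp in the study's table entered the comparison, measured in 2 ON bipolar cell (ON-BC) and 2 OFF bipolar cell (OFF-BC) libraries, 4 of the 29 samples of the series. The 4 libraries came from retinas of Otx2-GFP+/-; Grm6-YFP+/+ mice, so every bipolar cell carried 1 Otx2 allele with a GFP cassette, and the YFP used for sorting was a transgene under the Grm6 promoter. Replicate 1 of each group was taken at postnatal day 42 and replicate 2 at day 46. GFP is strong in bipolar cells and weak in photoreceptors, and ON-BCs carry YFP in addition. ON-BCs were sorted once and OFF-BCs 2 times, so the number of sorts and the cell class cannot be told apart. Cells with intermediate YFP were left out of both gates. The same table held 2 libraries each of all bipolar cells (pan-BC, days 43 and 44), rods, blue cones (Nrl-/- photoreceptors, used as a stand-in) and green cones. The photoreceptors came from an earlier study at day 56. The pan-BC label gives the same genotype, whereas the paper describes sorting all bipolar cells from Otx2-GFP mice. RNA-seq of sorted ON-BCs and OFF-BCs (3 libraries each, days 42 to 48) was used beside it. The labels do not say whether replicates came from separate animals, so the p-values measure the spread between replicate libraries and not between animals. In the main fits this spread was pooled over all cell populations of each table, including pan-BCs and the photoreceptors of the earlier study. It is therefore not the spread of the ON-BC and OFF-BC libraries alone.

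Photoreceptors hyperpolarise in light and release less glutamate. ON-BCs read that signal through the metabotropic receptor mGluR6 (Grm6), which acts through the G protein Gαo to close the cation channel TRPM1, so that ON-BCs depolarise when light comes on. OFF-BCs use ionotropic glutamate receptors of the kainate and AMPA types and depolarise when light goes off. Both classes depend on homeodomain factors such as OTX2, and rods and cones depend on OTX2 and its relative CRX, which bind the K50 homeodomain motif TAATCC. Other homeodomain factors, such as those of the LIM class, bind Q50 motifs such as TAATTA. Open chromatin away from promoters often marks enhancers, which act on genes over long distances, and the gene nearest to a region need not be the gene it acts on.

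The regions below carry the main features of the comparison and were chosen after their values and motifs were seen. They are plus-strand sequences of the RefSeq assembly GRCm38, the build of the files (mm10), read with the table's start taken as 0-based, so that positions may be off by 1 base. Capitals mark 6 motifs on either strand. They are the K50 motif TAATCC, the Q50 motifs TAATTA and the similar TAATTG, the E-box CAGATG, the MADS box CTATTTTTA of MEF2 type, and TGANTCA, the AP-1 motif. The first 5 were higher in ON-BCs.
Grm6, intron, chr11:50850772-50850971: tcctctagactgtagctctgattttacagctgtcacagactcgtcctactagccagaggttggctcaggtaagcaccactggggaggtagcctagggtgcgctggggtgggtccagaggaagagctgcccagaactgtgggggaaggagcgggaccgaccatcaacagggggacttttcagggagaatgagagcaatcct
Trpm1, 9449 bp upstream, chr7:64144287-64144486: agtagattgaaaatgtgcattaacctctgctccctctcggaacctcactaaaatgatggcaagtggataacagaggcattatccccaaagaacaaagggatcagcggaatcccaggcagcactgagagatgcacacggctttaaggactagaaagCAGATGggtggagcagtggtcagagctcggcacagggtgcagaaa
Pcp2 promoter, chr8:3625576-3625775: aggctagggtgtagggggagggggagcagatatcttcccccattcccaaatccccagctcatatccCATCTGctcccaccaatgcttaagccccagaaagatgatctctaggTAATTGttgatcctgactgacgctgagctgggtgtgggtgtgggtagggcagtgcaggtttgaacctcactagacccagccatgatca
Msn, intron, chrX:96123155-96123354: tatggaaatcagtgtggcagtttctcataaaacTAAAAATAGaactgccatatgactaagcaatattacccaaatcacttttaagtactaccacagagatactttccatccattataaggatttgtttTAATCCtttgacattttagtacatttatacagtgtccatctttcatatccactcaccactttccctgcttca
Agbl1, intron, chr7:76899630-76899829: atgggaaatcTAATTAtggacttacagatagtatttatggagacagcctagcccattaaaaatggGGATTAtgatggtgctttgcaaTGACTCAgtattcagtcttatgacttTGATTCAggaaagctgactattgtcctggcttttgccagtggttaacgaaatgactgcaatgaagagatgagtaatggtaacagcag
The next 4 were higher in OFF-BCs.
Grik3, intron, chr4:125495108-125495307: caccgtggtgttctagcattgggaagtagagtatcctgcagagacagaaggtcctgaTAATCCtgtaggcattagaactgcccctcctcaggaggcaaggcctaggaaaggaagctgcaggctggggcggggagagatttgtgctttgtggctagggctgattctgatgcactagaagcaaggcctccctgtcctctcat
4930459C07Rik, 2107 bp upstream, chr10:96224001-96224200: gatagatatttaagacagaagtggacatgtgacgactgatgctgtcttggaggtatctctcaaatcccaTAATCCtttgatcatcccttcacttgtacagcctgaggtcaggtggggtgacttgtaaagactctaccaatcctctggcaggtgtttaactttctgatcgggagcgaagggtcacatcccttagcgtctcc
Slit3, intron, chr11:35318258-35318457: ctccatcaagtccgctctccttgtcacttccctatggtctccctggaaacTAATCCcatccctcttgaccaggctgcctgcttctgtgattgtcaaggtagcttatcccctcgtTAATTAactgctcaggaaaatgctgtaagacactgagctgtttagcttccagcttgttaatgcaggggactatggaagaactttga
Ttll7, intergenic, chr3:147617636-147617835: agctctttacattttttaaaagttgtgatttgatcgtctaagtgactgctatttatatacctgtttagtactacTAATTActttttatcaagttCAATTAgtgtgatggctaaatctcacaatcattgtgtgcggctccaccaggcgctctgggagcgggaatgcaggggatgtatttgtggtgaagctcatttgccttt
The Grm6 region held none of these 6 motifs. The Msn region held the MADS box and TAATCC, the Agbl1 region 2 AP-1 matches beside TAATTA and TAATCC, and the Slit3 and Ttll7 regions TAATTA.

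Library depth was 4498372 to 5723557 counted reads over the 4 libraries. Replicates correlated at a Pearson r of 0.889 (ON-BC) and 0.866 (OFF-BC) over log2 values of the tested regions, against 0.623 to 0.643 between the classes. The replicates of each group differed by more than sampling noise, with a chi-square of 2.36 per region for ON-BC and 3.64 for OFF-BC. Markers of another cell type moved with the classes. In RNA, 8 of 11 cone genes tested were called higher in OFF-BCs, against 3.6% of all genes tested, with a summed level of 32330 to 107458 normalized counts in OFF-BCs, 6022 to 6903 in ON-BCs and 1543085 to 1766368 in blue cones. Conversely, 9 of 12 rod genes were called higher in ON-BCs in RNA, against 2.95% of all genes tested, with sums of 40177 to 43429 in ON-BCs, 12208 to 35547 in OFF-BCs and 2162052 to 2962679 in rods. The part of these cells in the results was not tested. In sorted bulk cells, a smaller share of cells with an open region and less opening per cell cannot be told apart.

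Accessibility differed between the classes at a set of regions that was mostly distal. Values are normalized counts, reads divided by 1 size factor per library. Of 108448 regions with enough reads to test, 8010 (7.39%) differed by more than 2-fold with adjusted p below 0.05 (limma's test against a log2 fold change of 1, with Benjamini-Hochberg adjustment). A total of 4972 regions (4.58%) were higher in ON-BCs and 3038 (2.8%) in OFF-BCs, so that 62.1% of calls were higher in ON-BCs. With edgeR on the recovered reads 7.23% were higher in ON-BCs and 4.69% in OFF-BCs (11.9% in all), and with DESeq2 3.62% and 0.975% (4.6% in all). With limma against a log2 fold change of 0 the shares were 14.3% and 10% (24.4% in all). The split depended on the scaling. It was 51.8% with TMM, 51.5% with size factors from the 4 libraries, 58.4% with size factors from promoters and 47.9% with total reads, and the median difference of all tested regions moved from 0.15 with the deposited scaling to between -0.14 and 0.07 (log2).

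In the regions higher in ON-BCs the median level was 61.4 in ON-BCs and 2.99 in OFF-BCs. In those higher in OFF-BCs it was 32.5 in OFF-BCs and 2.93 in ON-BCs. The median fitted difference was 4.0 (range 1.71 to 7.85) in the former and -3.32 (range -6.27 to -1.41) in the latter, on the log2(normalized count + 1) scale, against 0.15 over all tested regions. Neither OFF-BC library had a read at 475 of the ON-BC-higher regions, and neither ON-BC library at 754 of the OFF-BC-higher ones. With these set to a bound of 3 reads over the group, the median size was 3.97 and 3.0. At all called regions the 2 libraries of one class lay above both of the other. Among all tested regions this was true of 36.7% in the ON-BC direction and 23.4% in the OFF-BC direction.

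**Figure D1:**
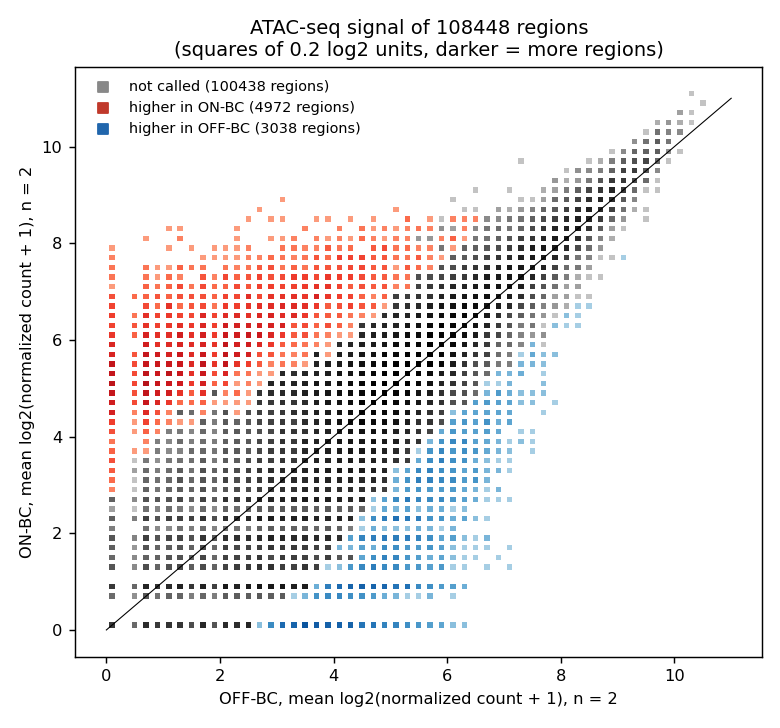
Mean log2(normalized count + 1) of each tested region in the 2 OFF-BC libraries (x axis) and the 2 ON-BC libraries (y axis), drawn as squares of 0.2 log2 units that darken with the number of regions; red regions were called higher in ON-BCs (4972), blue ones higher in OFF-BCs (3038), grey ones were not called, and the line marks equal levels. The called regions form bands on either side of the line and few of them reach the highest levels.

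Of the 12 genes of the ON signalling cascade, 4 had ON-BC-higher regions, among them those of the receptor and the channel, and 2 had OFF-BC-higher ones. The genes had 83 tested regions nearest to them, of which 5 (6.02%) were higher in ON-BCs and 3 (3.61%) in OFF-BCs, near the 4.58% and 2.8% of all tested regions, with a median difference of 0.61 (log2) against 0.15 over all regions. The region 186 bp inside Grm6, the mGluR6 gene, had 303 and 384 normalized counts in ON-BCs and 13.5 and 16.5 in OFF-BCs. Both ON-BC libraries were far above both OFF-BC libraries, a difference of 4.42 ± 0.56 (log2, SE; adjusted p = 6.42e-04). In pan-BCs it was 34.4 and 30.8, so the ON-BC to pan-BC ratio was 10.5, against a median of 1.48 (quartiles 1.27 and 1.75) over the ON-BC-higher regions, of which 7 had a ratio at least as high. At 2295 and 3449 bp upstream of Grm6 the pan-BC mean was also below 0.5 of the mean of both other groups, as at 1.38% of tested regions. These upstream regions had ON-BC counts of 143 and 212, and of 108 and 129. OFF-BC counts were 113 and 134, and 56.6 and 66.2, and neither region was called. The sorted ON-BCs and OFF-BCs carry a transgene with the Grm6 promoter. Reads from it and from the gene itself cannot be told apart. The label of the pan-BCs includes this transgene and the paper's description of them does not. The comparison with pan-BCs at Grm6 is therefore uncertain.

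Trpm1, the channel closed by mGluR6 signalling, had a region 9449 bp upstream with 125 and 141 counts in ON-BCs and 10.8 and 17.5 in OFF-BCs. The groups did not overlap, and the difference was 3.18 ± 0.66 (adjusted p = 0.0312). Nyx, which encodes the synaptic protein nyctalopin, had an intronic region with 41.8 and 57.1 counts in ON-BCs and 2.69 and 4.87 in OFF-BCs (3.42 ± 0.72, adjusted p = 0.0294). Rgs7, a regulator that speeds G protein deactivation, had 2 ON-BC-higher regions, the larger with 64.2 and 127 counts against 14.8 and 11.7 (2.69 ± 0.52, adjusted p = 0.0351). The calls at Trpm1, Nyx and Rgs7 were lost under TMM scaling. Those at Trpm1 and Nyx were also lost when any 1 of the 4 libraries was left out, and that at Rgs7 without ON-BC replicate 2 or either OFF-BC library.

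OFF-BC-higher regions lay at Lrit3 and Gnb5 of the same list. The promoter of Lrit3, which helps to place TRPM1 at the synapse, had 11.9 and 0 counts in ON-BCs, 52.5 and 30.2 in OFF-BCs, and 199 to 301 on average in rods and cones. The difference was -3.51 ± 0.70 (adjusted p = 0.0210), while its RNA was at 1.03 to 12.7 in ON-BCs and 2.40 to 28.7 in OFF-BCs. The Lrit3 call was lost with DESeq2, with the 4 libraries alone, and without ON-BC replicate 2 (-1.66) or either OFF-BC library. Gnb5, the G protein subunit that pairs with RGS proteins, had an intronic region with 20.9 and 14.6 counts in ON-BCs, 136 and 99.3 in OFF-BCs, and means of 336 to 821 in photoreceptors. Its difference was -2.66 ± 0.23 (adjusted p = 1.93e-04) while its RNA was higher in ON-BCs by 1.70 ± 0.13 (adjusted p = 7.86e-04). No region was called at Gpr179, which anchors RGS proteins at the synapse, although its RNA was higher in ON-BCs by 3.87 ± 0.33 (adjusted p = 6.83e-06). The Gpr179 promoter had 151 and 114 counts against 29.6 and 51.6, a difference of 1.72 ± 0.75 (adjusted p = 0.719).

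Markers of ON types had more ON-BC-higher regions than the other lists. Their 12 genes had 146 tested regions, of which 30 (20.5%) were higher in ON-BCs and 3 (2.05%) in OFF-BCs. Over all tested regions the shares were 4.58% and 2.8%. The median difference at the ON markers was 1.02. RNA was called higher in ON-BCs for 9 of the 12 genes, against 2.95% of all genes tested. At least 1 region was higher in ON-BCs at 8 of the 12 genes. Isl1, a LIM homeodomain factor of ON-BCs, held 9 of these regions among its 23. The Isl1 promoter had 302 and 343 counts in ON-BCs and 13.5 and 17.5 in OFF-BCs, a difference of 4.30 ± 0.60 (adjusted p = 0.00141). The one 9825 bp upstream had 62.7 and 83.5 counts against 0 and 0.973, so OFF-BCs had 1 read, and the ratio of the summed counts was 130 (95% exact interval 22.7 to 5170, counting error only). Isl1 RNA followed, at 24400 to 28000 normalized counts in ON-BCs and 162 to 1330 in OFF-BCs.

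Prkca, which encodes the protein kinase C alpha of rod bipolar cells, had 6 ON-BC-higher regions, all of them in its introns. The one with the largest difference had 22.4 and 20.5 counts in ON-BCs and 0 in both OFF-BC libraries, at least 12.6-fold higher against a floor of 3 reads over the group. At 44144 bp inside the gene another had 94.1 and 173 counts against 5.39 and 4.87. Car8, a carbonic anhydrase-related gene, also had 6 ON-BC-higher regions. The largest lay 330960 bp downstream of the start site, with 152 and 101 counts against 0 and 0, at least 74.6-fold higher. Lrrtm1, a synaptic adhesion gene, was nearest to 5 ON-BC-higher regions, all far from its start site. The leading one, 728740 bp upstream, had 146 and 186 counts against 5.39 and 1.95 (5.26 ± 0.71, adjusted p = 7.56e-04). The others lay 49912 to 496949 bp upstream, some of them in introns of Ctnna2. Lrrtm1 RNA was low and overlapped between the classes, at 79.5 to 121 in ON-BCs and 56.5 to 116 in OFF-BCs. It is a marker of an ON type with weak Grm6 expression, and cells with intermediate YFP were in neither gate.

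The promoter of Pcp2, a modulator of G proteins found in rod bipolar cells, had 92.6 and 161 counts in ON-BCs and 10.8 and 13.6 in OFF-BCs (3.23 ± 0.54, adjusted p = 0.00926). Sebox had 47.8 and 82.0 against 5.39 and 4.87, and Strip2 had 140 and 148 against 24.2 and 36. All 3 calls were lost without ON-BC replicate 2 and without OFF-BC replicate 1. The Pcp2 call was lost with both cones as 1 level, the Sebox call also without OFF-BC replicate 2, and the Strip2 call also without ON-BC replicate 1, under TMM scaling, under total reads and with the 4 libraries alone. Vstm2b had no called region. The one nearest to its start had 160 and 205 counts in ON-BCs and 167 and 146 in OFF-BCs, which overlapped, whereas its RNA was at 2290 to 2640 in ON-BCs and 19.2 to 121 in OFF-BCs. Cpne9 had 2 regions higher in OFF-BCs and Scgn 1 in each direction. RNA of both genes was higher in OFF-BCs without overlap, although neither was called. It was 631 to 659 in OFF-BCs and 258 to 420 in ON-BCs for Cpne9, and 96700 to 108000 and 27800 to 35600 for Scgn. The Cpne9 region had means of 143 to 277 in photoreceptors.

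**Figure D2:**
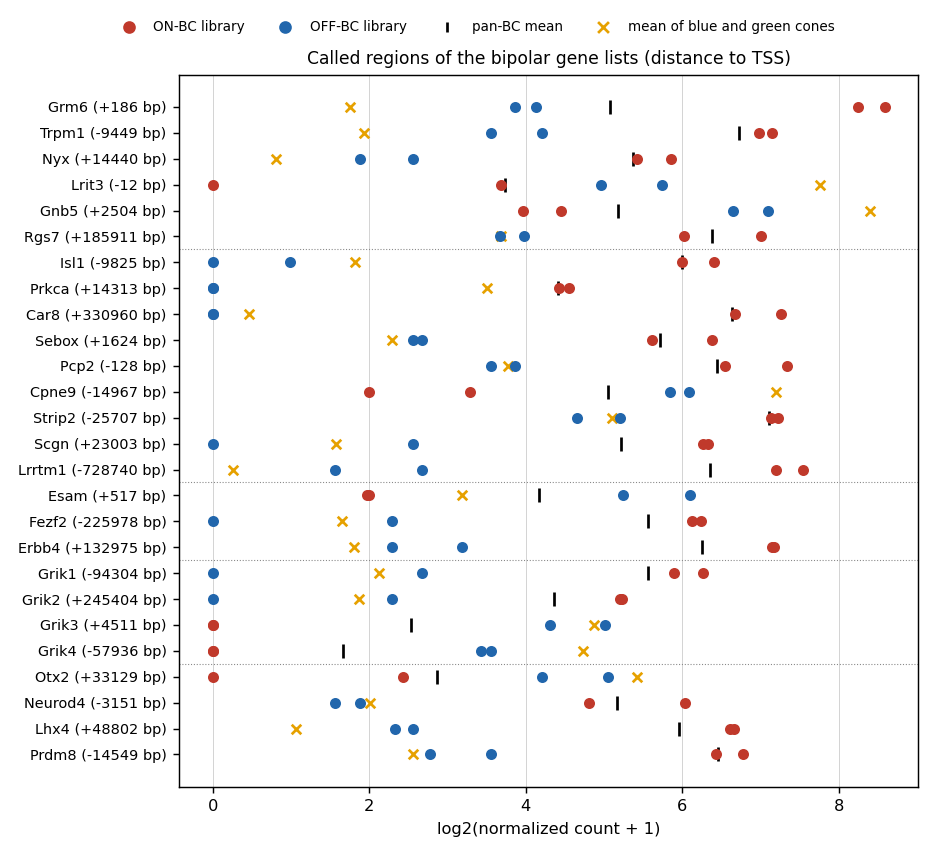
The called region with the largest difference at each gene of the 5 bipolar lists, on a log2(normalized count + 1) axis, with the distance to the gene's start site in bp; red and blue points are single ON-BC and OFF-BC libraries, the bar is the pan-BC mean and the cross the mean of the 2 cone types, and dotted lines separate the lists. At Lrit3, Gnb5, Cpne9, Grik4 and Otx2 the cross lies beyond the OFF-BC points, and at Grm6 the pan-BC bar lies far below the ON-BC points.

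OFF markers showed no excess of that size. Of 98 tested regions at 13 of 14 genes (Pcdh10 had none), 4 were higher in ON-BCs and 4 in OFF-BCs. These shares of 4.08% each stood beside 4.58% and 2.8% of all tested regions. The median difference was 0.24, while RNA was called higher in OFF-BCs for 8 of the 14, against 3.6% of all genes tested. Esam, an adhesion gene whose RNA was at 12200 to 14200 in OFF-BCs and 42.1 to 69.1 in ON-BCs, had 3 of the 4 OFF-BC-higher regions. The Esam promoter region 57 bp from the start had 99.7 and 85.7 counts in OFF-BCs and 8.96 and 5.86 in ON-BCs, with means of 4.27 to 6.85 in photoreceptors. Its difference was -3.50 ± 0.54 (adjusted p = 0.00440). The largest difference at Esam lay 517 bp inside the gene, with 67.4 and 37.0 counts in OFF-BCs and 2.99 and 2.93 in ON-BCs (-3.69 ± 0.63, adjusted p = 0.00718), a call that was lost without OFF-BC replicate 1.

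The fourth OFF-BC-higher region, near the receptor tyrosine kinase gene Erbb4, had 67.4 and 16.5 counts against 2.99 and 0, beside means of 35.6 to 138 in photoreceptors. Erbb4 had 3 regions higher in ON-BCs, all in its introns, although its RNA was higher in OFF-BCs (298, 352 and 250 against 5.16, 3.92 and 1.03). The largest of the 3 had 143 and 141 counts in ON-BCs and 8.08 and 3.89 in OFF-BCs (4.42 ± 0.71, adjusted p = 0.00349). The transcription factor gene Fezf2 had 1 called region, 225978 bp upstream in an intron of Cadps, with 74.7 and 68.8 counts in ON-BCs and 0 and 3.89 in OFF-BCs, whereas Fezf2 RNA was at 2330 to 2690 in OFF-BCs and 14.7 to 15.5 in ON-BCs. Tacr3, the neurokinin receptor of some OFF types, had 29.6 and 16.5 counts in OFF-BCs and 5.97 and 8.78 in ON-BCs near its start, a difference of -1.49 ± 0.79 that did not pass (adjusted p = 0.937), although its RNA was higher in OFF-BCs by 7.6 ± 0.81 (log2; adjusted p = 1.40e-05).

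Kainate receptor genes were called in both directions. Of the 64 regions of the 7 receptor and Neto subunit genes, 3 (4.69%) were higher in ON-BCs and 4 (6.25%) in OFF-BCs, beside 4.58% and 2.8% of all tested regions, with a median of 0.17. DESeq2 called 0 and 1 of them. At Grik1, the subunit gene with the highest RNA in OFF-BCs (28600 to 50200 against 382 to 568), the called region 94304 bp upstream had 76.1 and 58.6 counts in ON-BCs and 5.39 and 0 in OFF-BCs (4.75 ± 1.05, adjusted p = 0.0212). Grik2 had 2 ON-BC-higher regions in its introns and 1 OFF-BC-higher region far downstream, and its RNA was 93.9 to 177 in OFF-BCs and 0 to 7.84 in ON-BCs. The regions with the largest differences at Grik1, Grik2, Erbb4 and Fezf2 and the RNA of these genes differed in opposite directions. The calls at the Grik1, Grik2 and Fezf2 regions were lost with DESeq2 and when either ON-BC library was left out, and also without OFF-BC replicate 2 (Grik1) or OFF-BC replicate 1 (Grik2 and Fezf2, the latter then at 3.89).

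Grik3 had 2 OFF-BC-higher regions and Grik4 had 1, yet both genes had RNA values of at most 6.16 in both classes. The larger Grik3 region had 18.9 and 31.2 counts in OFF-BCs and 0 in ON-BCs, at least 11.7-fold higher, with means of 26.7 to 29.6 in photoreceptors. The Grik4 region had 10.8 and 9.73 counts against 0 and 0, at least 4.59-fold higher, with means of 18.5 to 40.8 in photoreceptors. The Grik3 call was lost without OFF-BC replicate 2, and the Grik4 call with DESeq2, with the 4 libraries alone and without OFF-BC replicate 1. Neto1, an auxiliary subunit, had no called region, although its RNA was higher in OFF-BCs (225, 660 and 463 against 6.19, 2.94 and 3.08).

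Factors shared by bipolar cells had calls at shares near those of all tested regions (4.58% and 2.8%). Among 63 regions of 6 genes, 3 (4.76%) were higher in ON-BCs (at Neurod4, Lhx4 and Prdm8) and 2 (3.17%) in OFF-BCs (at Otx2 and Lhx4). Otx2, which carries GFP in these mice, had an intergenic region 33129 bp from its start with 17.5 and 32.1 counts in OFF-BCs, 0 and 4.39 in ON-BCs and means of 35.7 to 48.1 in photoreceptors. The Otx2 call was lost with DESeq2, with the 4 libraries alone, and without ON-BC replicate 1 (-2.20) or either OFF-BC library. Lhx4 had an ON-BC-higher region with 100 and 96.6 counts against 4.04 and 4.87, and an OFF-BC-higher one with 14.9 and 19 counts in ON-BCs and 164 and 139 in OFF-BCs. The ON-BC-higher calls at Neurod4, Lhx4 and Prdm8 were lost without ON-BC replicate 2. They were also lost without either OFF-BC library (Neurod4), without OFF-BC replicate 1 (Lhx4), and without ON-BC replicate 1 or OFF-BC replicate 2 (Prdm8).

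The largest differences in the ON-BC direction reached at least 137-fold. These 10 regions were listed at a mean of at least 50 counts in the higher group and 1 region per gene, and 9 of the 10 had no read in OFF-BCs. The Neil3 region, in intergenic DNA 127875 bp from the start of this DNA glycosylase gene, had 200 and 265 counts in ON-BCs and 0 in both OFF-BC libraries. The next were 9230102K24Rik (224 and 212), Thsd7b (196 and 218), Ldah (178 and 190), Isoc1 (160 and 192) and 4930455B14Rik (167 and 176), at least 101-fold to 129-fold higher. Aven had 269 and 275 counts against 0 and 1.95, a ratio of 241 (95% exact interval 66.2 to 1990). Myf5 and Agbl1, at least 87.2-fold and 89.4-fold higher, had RNA of at most 1.03 in these cells. Msn, which encodes the membrane-cytoskeleton linker moesin, had 140 and 165 counts against 0 and 0, and its RNA was 343, 156 and 185 in ON-BCs and 4.47, 4.81 and 2.21 in OFF-BCs. Rods and cones had means of at most 6.40 at all 10 regions.

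The largest differences in the OFF-BC direction were smaller and the regions were open in cones as well. The region 2107 bp upstream of 4930459C07Rik had 87.6 and 66.2 counts in OFF-BCs, 0 in both ON-BC libraries, 220 on average in blue cones and 183 in green cones. It was at least 33.9-fold higher in OFF-BCs than in ON-BCs. The same arrangement was seen at Epb41l1 (71.4 and 64.2 in OFF-BCs; 204 and 244 in the cone types), Gm17546 (76.8 and 58.4; 210 and 137) and Fstl4 (75.4 and 52.6; 217 and 138). The region nearest to Slit3, a guidance ligand gene, had 174 and 121 counts in OFF-BCs, 0 and 4.39 in ON-BCs and means of 284 and 169 in cones, a ratio of 64.5 (95% exact interval 21.8 to 315). Slit3 RNA went the other way, with 203, 107 and 142 in ON-BCs and 2.24, 0 and 2.21 in OFF-BCs, and Fstl4 RNA was 252 to 309 in ON-BCs and 6.71 to 30.9 in OFF-BCs. The others were Hsbp1, Gm20319, Ttll7, Ift57 and Ano1, at least 25.0-fold to 32.4-fold higher, with blue cone means of 27.0 to 88.0.

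Some genes were nearest to many called regions of one direction, a count that also depends on how many of their regions were tested. Of all tested regions 4.58% were higher in ON-BCs and 2.8% in OFF-BCs. A total of 3373 genes were nearest to an ON-BC-higher region, 2400 to an OFF-BC-higher one and 683 to both, of 20818 genes. Cntnap2, a neuronal adhesion gene of the neurexin family, had 13 ON-BC-higher regions among 51, with differences of 3.20 to 5.64, and 12 lay inside the gene. Its RNA was 4600 to 5010 in ON-BCs and 436 to 772 in OFF-BCs (3.11 ± 0.33, adjusted p = 1.65e-04). The cadherin gene Cdh9 had 11 among 31, all outside the gene, and its RNA difference of 1.46 ± 0.54 did not pass (adjusted p = 1.00). Map3k7, an inflammatory signalling kinase, had 10 ON-BC-higher regions among 47, at 221.9 to 635.1 kb from its start. Its RNA was 400 to 448 in ON-BCs and 311 to 370 in OFF-BCs. Isl1 had 9 among 23, Mir3106 8 among 37 and Tenm3 8 among 53. Next were 4930474H20Rik with 7 among 12 and 4930590L20Rik with 7 among 17, a count that a ninth gene shared.

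In the OFF-BC direction Tbc1d22a had 8 regions of 52, with differences of -4.39 to -1.92 and RNA of 146 to 220 in OFF-BCs and 199 to 265 in ON-BCs. Cdh13, a cadherin anchored without a transmembrane part, had 7 regions among 48. Its RNA was low but higher in OFF-BCs (27.9, 42.0 and 59.6 against 0, 2.94 and 7.18). Dscam, which guides the spacing of retinal neurons, had 7 regions among 36. Its RNA was 1740 to 1840 in OFF-BCs and 913 to 1060 in ON-BCs, a difference of -0.85 ± 0.22 that did not pass. Casz1, Elfn1, Esrrg, Gm27239 and Gm51627 had 5 each, among 31, 30, 37, 29 and 17, a count that a ninth gene shared. Casz1 RNA was 15.6 to 114 in OFF-BCs, and 6400 to 6970 in rods.

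Promoters, regions from 1000 bp before to 100 bp after a start site, made up 2.62% of called regions (210) and 15.2% of tested ones. Of 16495 promoter regions tested, 61 (0.37%) were higher in ON-BCs and 149 (0.903%) in OFF-BCs. Of 91953 distal regions, 4911 (5.34%) and 2889 (3.14%) were. Regions higher in ON-BCs lay farther from start sites, with a median distance of 59.1 kb and 13.9% within 10 kb, than those higher in OFF-BCs, with 25.0 kb and 27.2%. Over all tested regions 36.9% lay within 10 kb. Intergenic DNA held 51.8% of the ON-BC-higher and 43.5% of the OFF-BC-higher regions, and introns 45.8% and 53.3%. Over all tested regions the shares were 45.7% intergenic and 46.2% in introns, and over the distal ones 42.6% and 51.9%. The shares of the OFF-BC-higher regions were thus near those of all distal regions. The median GC content was 42.5% and 47.5%, against 50% over all tested regions. Apart from Y, the share of tested regions higher in ON-BCs ran from 2.59% on chromosome 11 to 5.88% on chromosome 3, with 5.76% on X. The share higher in OFF-BCs ran from 1.70% on X and 1.76% on chromosome 7 to 3.53% on chromosome 9. Few called regions stood within 5 kb of another of the same direction, 4.38% in ON-BCs and 7.93% in OFF-BCs. The largest group held 4 OFF-BC-higher regions between A930009A15Rik and Lgr5.

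Several promoters, named after their values were seen, differed together with RNA of the same gene. The Drd2 promoter, at the dopamine receptor D2 gene, had 311 and 256 counts in ON-BCs and 79.5 and 74.0 in OFF-BCs, with RNA of 836 to 1100 and 8.41 to 47.4. At Reln, which encodes the secreted protein reelin, it was 85.1 and 99.6 against 16.2 and 16.5, with RNA of 6310 to 7340 and 42.0 to 311. Gnat3, a G protein alpha subunit of taste cells, had 68.7 and 92.2 against 0 and 1.95 and RNA of 190 to 559 and 2.24 to 13.2. In the other direction, the promoter of Sox9, a factor best known from Müller glia, had 97.0 and 122 counts in OFF-BCs and 10.5 and 8.78 in ON-BCs, with 1230 to 1490 and 14.7 to 35.1 in RNA. The homeobox gene Irx5 had 44.5 and 67.2 counts against 5.97 and 2.93, with RNA of 76.0 to 146 in OFF-BCs and 0 to 1.03 in ON-BCs. A930009A15Rik had 52.5 and 25.3 against 0 and 5.86, with RNA of 2500 to 2890 in OFF-BCs and 8.21 to 15.5 in ON-BCs. These 3 promoters had means of at most 22.2 in rods and in both cone types.

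RNA of the nearest genes was called more often in the direction of the regions, although most such genes were not called. In RNA, 919 of 14024 genes tested (6.55%) were called, 414 (2.95%) higher in ON-BCs and 505 (3.6%) in OFF-BCs, by the same kind of test, and edgeR called 8.74% (4.06% and 4.68%). Of 1448 tested genes with only ON-BC-higher regions, 148 (10.2%) had RNA higher in ON-BCs and 62 (4.28%) in OFF-BCs. Of 1127 with only OFF-BC-higher regions, 24 (2.13%) were higher in ON-BCs and 84 (7.45%) in OFF-BCs. Genes with regions in both directions split evenly, with 37 of 430 each way. With at least 3 regions in one direction and none in the other, 34 of 148 genes (23.0%) were higher in ON-BCs and 9 the other way. For OFF-BCs the numbers were 13 of 56 (23.2%) and 0. At called promoters, 22 of 44 genes (50%) had RNA higher in ON-BCs with 1 the other way, and 27 of 108 (25.0%) in OFF-BCs with 3 the other way. Seen from the RNA, 46.7% of genes higher in ON-BCs had an ON-BC-higher region, against 15% of all RNA-tested genes with a region. Of genes higher in OFF-BCs 26.2% had an OFF-BC-higher region, against 12.5%, and 21.5% had an ON-BC-higher one.

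**Figure D3:**
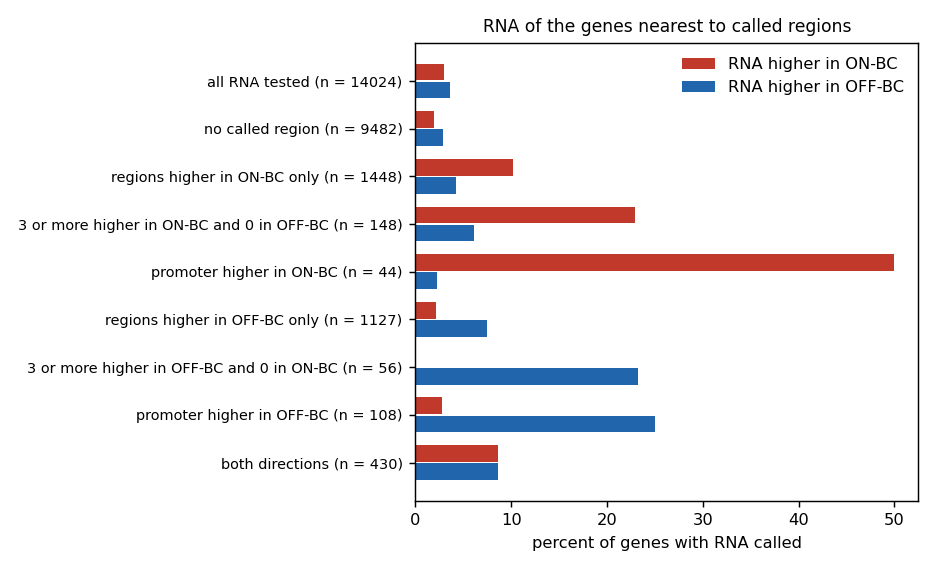
Percent of RNA-tested genes called higher in ON-BCs (red) or OFF-BCs (blue) in RNA (x axis), for groups of genes set by the called regions nearest to them (y axis, with the number of genes). The bars are longest for called promoters, at 50% and 25.0%, and both are short for genes without a called region.

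The regions higher in the 2 classes differed in how open they were in photoreceptors. At ON-BC-higher regions the median was 42.4 in pan-BCs, 1.30 in blue cones, 2.18 in green cones and 0.678 in rods. Rods and both cone types were each under 25% of the ON-BC level, a boundary chosen after the data were seen, at 4394 of the 4972 (88.4%). Among all 108448 tested regions, 32477 had photoreceptors under 25% of the higher class. At OFF-BC-higher regions the median was 10.4 in pan-BCs, 57.8 in blue cones, 55.6 in green cones and 25.3 in rods, against 32.5 in OFF-BCs. Both cone types were at or above the OFF-BC level at 2115 of the 3038 (69.6%) and rods at 1477 (48.6%). At 146 (4.81%) photoreceptors were under 25% of the OFF-BC level. Of the ON-BC-higher regions, both cone types were at or above the ON-BC level at 0.845% and rods at 2.39%. Over all tested regions the medians were 34.0 in ON-BCs, 25.5 in OFF-BCs, 15.1 in blue cones, 17.9 in green cones and 8.84 in rods. The share of all tested regions with cones or rods at or above the higher class was not computed. The share of 69.6% was 61.9% to 76.1% when regions were called by any of the other tests, scalings, filters or sets of libraries. Pan-BCs lay between ON-BCs and OFF-BCs at 94.1% of the ON-BC-higher and 98.8% of the OFF-BC-higher regions.

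**Figure D4:**
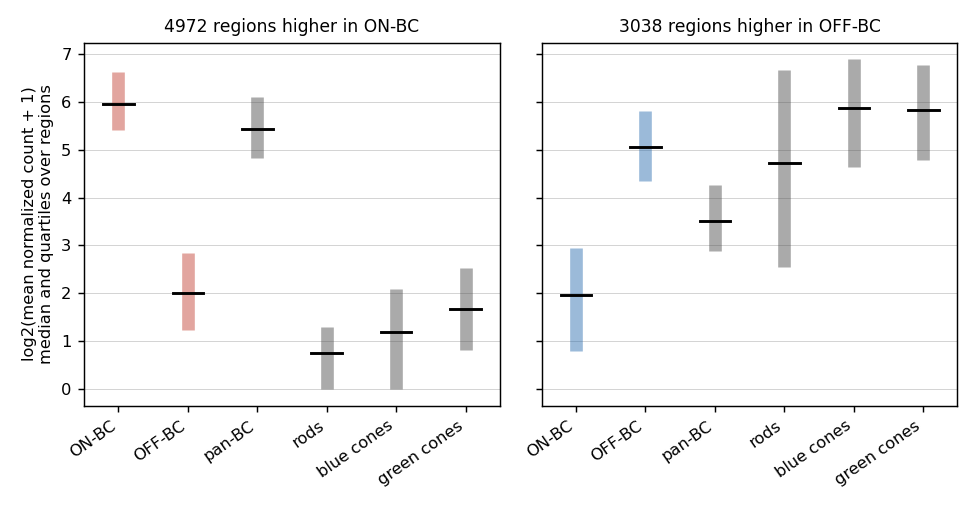
Level of the called regions in each population as log2(mean normalized count + 1), for the 4972 regions higher in ON-BCs (left) and the 3038 higher in OFF-BCs (right); black lines are medians over regions and bars span the quartiles. Photoreceptors lie near the bottom on the left, and both cone types lie above OFF-BCs on the right.

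Cone genes themselves were among the OFF-BC-higher regions. Of 128 regions at 11 cone genes, 16 (12.5%) were higher in OFF-BCs, at 9 of the genes, against 2.8% of all tested regions. In ON-BCs 3 (2.34%) were higher, against 4.58%. The promoter of Opn1sw, the S-opsin gene, had 112 and 106 counts in OFF-BCs, 11.9 and 2.93 in ON-BCs, and means of 232 in blue and 111 in green cones (-3.95 ± 0.44, adjusted p = 3.52e-04). That of Pde6h, a subunit gene of the cone phosphodiesterase, had 44.5 and 38.9 counts in OFF-BCs, 0 in ON-BCs, and 219 and 126 in the cone types, at least 18.6-fold higher in OFF-BCs. Promoters of the cone transducin Gnat2, the cone arrestin Arr3, the channel Cnga3, the phosphodiesterase Pde6c and the thyroid hormone receptor Thrb were also called, with differences of -3.69 to -2.08. Summed over all 128 regions, counts were 3778 to 4303 in OFF-BCs, 4342 to 4630 in ON-BCs and 6477 to 7550 in cones.

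Regions were also taken by level, with at least 50 counts in both cone types and under 5 in ON-BCs, boundaries set after the data were seen. The choice fixes the low ON-BC level, and 585 of these 864 regions were themselves called higher in OFF-BCs, so the values are a description that is not independent of the calls. OFF-BCs had a median of 25.8 (quartiles 15.9 and 38.5), which was 29.0% of the cone level (quartiles 19.3% and 42.5%), and pan-BCs 9.36. The mirror choice, with OFF-BCs under 5, gave 48 regions, at which ON-BCs had a median of 5.89, or 7.27% of the cone level. Where rods had at least 50 counts, both cone types under 10 and ON-BCs under 5 (22 regions), OFF-BCs had a median of 2.92. In the mirror choice of 23 regions ON-BCs had 2.96. Whether these levels come from cones in the OFF-BC sort or from regions open in both cell classes was not tested.

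Lists of other cell types had calls in small numbers, beside 4.58% of all tested regions higher in ON-BCs and 2.8% in OFF-BCs. Rod genes had 2 regions (2.11%) in each direction among 95. Müller glia genes had 4 (6.90%) higher in ON-BCs and 1 (1.72%) in OFF-BCs among 58, the latter at Sox9. Amacrine, horizontal and ganglion cell genes had 3 of 58 (5.17%) higher in ON-BCs, endothelial genes 2 of 39 (5.13%) and microglia genes 0 of 5.

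Peaks that the authors called in each library matched the ON-BC-higher regions more fully. A peak was present in both ON-BC libraries at 89.4% of them, in both ON-BC and in no OFF-BC library at 82.2%, and in none of the 4 at 69 regions. Of the OFF-BC-higher regions 55.3% had a peak in both OFF-BC libraries, 49.8% in both and in no ON-BC library, and 25.8% (783) in none of the 4. Over all tested regions 51.9% had a peak in both ON-BC libraries and 10.8% in both and in no OFF-BC library. For OFF-BCs these shares were 44.8% and 5.61%, and 23.1% had a peak in none of the 4, near the 25.8%. The libraries had 66147 and 69435 peaks in ON-BCs and 60594 and 54772 in OFF-BCs.

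Motif content was compared as the share of distal regions with at least 1 match on either strand, a description with no test, over 20 motifs. TAATCC, the K50 motif, was as common in both sets, at 34.9% of ON-BC-higher and 36.1% of OFF-BC-higher regions, against 24.6% of all 91953 distal regions. TAATTA, the Q50 motif, was present in 4.79% of the former, 12.7% of the latter and 5.83% of all. The related TAATTG was in 9.29%, 12.6% and 7.61%. Within regions of 40 to 50% GC the shares of TAATTA were 3.73% and 15.2%, with 7.41% over all. In regions where photoreceptors were under 25% of the higher class they were 4.57% of 4351 and 19.7% of 142, with 5.135% over all 31039. In those regions TAATCC was in 33.2% and 16.2% (23 of 142), with 21.0% over all. There TAATCC was above the share of all such regions in the ON-BC-higher set only.

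The AP-1 motif TGANTCA was in 13.6% of ON-BC-higher, 6.75% of OFF-BC-higher and 7.71% of all distal regions. The MADS box CTATTTTTA, bound by MEF2 factors, was in 2.61%, 0.935% and 0.947%. The E-box CAGATG, which is also counted among the CANNTG matches, was in 29.2%, 21.3% and 25.1%, and any CANNTG in 76.5%, 68.4% and 72.5%. Where photoreceptors were under 25% of the higher class the order turned, with CAGATG in 30.2%, 38.7% and 36.3% and CANNTG in 76.8%, 80.3% and 79.7%. The nuclear receptor motif AGGTCA had 15.1%, 21.3% and 16.9%. Motifs typical of promoters and insulators were rarer in both sets than in all distal regions, with GGGCGG in 2.79%, 5.40% and 9.48% and AGGGGGC, part of the CTCF site, in 1.18%, 2.39% and 5.96%. Within regions of 40 to 50% GC the shares of GGGCGG were alike, at 2.22%, 2.56% and 2.40%, and those of AGGGGGC were 1.17%, 1.31% and 3.79%. The other 10 motifs were the E-box CAGCTG, the E-box CATATG, the E-box CACCTG of ZEB type, the E-box CACGTG of MYC type, the nuclear factor I motif TTGGCA, the ONECUT motif ATCGATT, the POU motif ATGCAAAT, the MAF motif TGCTGAC, the CCAAT box and the RFX motif GTTGCC. They had shares within 2-fold of all distal regions in both sets.

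Counts of calls moved with the libraries used. Without ON-BC replicate 1, 2901 regions were higher in ON-BCs and 3217 in OFF-BCs. Without ON-BC replicate 2 there were 2146 and 2840. Leaving out OFF-BC replicate 1 gave 2785 and 1390, and OFF-BC replicate 2, 3994 and 1963. A fit of the 4 libraries alone gave 3432 and 462. Of the 8010 calls, 0 had the opposite sign under any of these or the other settings tried. At all of them both libraries of one class lay above both of the other. With limma and the deposited scaling, the sign was therefore fixed in advance whichever libraries were used, and the 0 is no sign of stability there.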

How the data were processed

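ATAC-seq was analysed in 12 libraries of 6 populations and RNA-seq in 15 libraries. The authors aligned ATAC-seq reads to mm10 with Bowtie2 2.2.5, removed duplicates with Picard 2.19.0 and fragments over 150 bp, called peaks per library with MACS2 2.1.1 and counted reads in merged regions. No transposase offset is given in the sources used here. The deposited table holds a signal, counts divided by 1 size factor per library. Whole reads were recovered at 100% of values above 0 (within 0.01 read). Deposited peak files give a score, a fold enrichment ratio and −log10 p and q values, of which only positions were used.

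Regions passing edgeR's expression filter were tested with limma 3.58.1 (R 4.3.3) on log2(normalized count + 1) against a log2 fold change of 1, over 12 libraries and 6 levels, with Benjamini-Hochberg adjustment at 0.05. Genes were the nearest RefSeq start sites. RNA was tested likewise. edgeR 4.0.16 and DESeq2 1.42.0 on recovered reads were alternatives, and the fits were tested on simulated data. Intervals cover counting error only, and reads of a library amplified by PCR are not independent molecules.

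Named were the called region with the largest difference at each gene of 5 lists (51 genes), or its promoter or nearest region, the 10 largest differences per direction at a mean of at least 50 counts, and the 8 genes with most called regions per direction. Lists and rules were chosen with earlier results of these data known. Exceptions are said to be chosen after their values were seen. Some genes of the lists are not reported here by name.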

Additional observations from a re-analysis of the deposited data

How the results depend on the processing

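With 2 libraries per class, the number of calls depended on the settings. Called regions numbered 12927 (7839 higher in ON-BCs, 5088 in OFF-BCs) with edgeR, 4791 with DESeq2 (1016 in OFF-BCs), 26416 (15562 and 10854) against a log2 fold change of 0, 3894 (462 in OFF-BCs) with the 4 libraries alone and 4540 (146 in OFF-BCs) where photoreceptors were under 25% of the higher class, an alternative added after seeing the data. With a pseudocount of 0.5, 3233 were higher in ON-BCs. Leaving out 1 library gave 4175 to 6118 calls, 2146 to 3994 higher in ON-BCs and 1390 to 3217 in OFF-BCs. The share higher in ON-BCs was 60.6% with edgeR, 78.8% with DESeq2, 58.9% against 0, 51.8% with TMM, 47.9% with total reads, 51.5% with size factors of the 4 libraries, 58.4% with promoter size factors, 53.6% and 75.9% with pseudocounts of 0.5 and 4, 88.1% with the 4 libraries alone, 96.8% where photoreceptors were low, and 43.0% to 67.0% with 1 library left out. Promoters made up 3.02%, 2.15%, 9.26%, 3.17%, 3.26%, 3.07%, 2.27% and 1.46% of calls with edgeR, DESeq2, against 0, TMM, total reads, size factors of the 4 libraries, a pseudocount of 4 and the 4 libraries alone, and 2.38% to 3.25% with 1 library left out. The cause was not tested.

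The share of OFF-BC-higher regions with both cone types at or above OFF-BCs was 65.1% with edgeR, 73.5% with DESeq2, 63.5% against 0, 72.7% and 64.7% with pseudocounts of 0.5 and 4, 75% with a mean of at least 10 reads, 61.9% with the 4 libraries alone, 73.9% with both cones as 1 level, and 68.8% to 76.1% with 1 library left out, all added after seeing the data. RNA of genes with ON-BC-higher regions only was called higher in ON-BCs for 13.6% with edgeR, and of those with OFF-BC-higher regions only, in OFF-BCs for 10.03%. For genes with a called promoter the shares were 50% and 25.0% with limma, and 54.5% and 29.6% with edgeR. TAATTA was in 15.2% of OFF-BC-higher regions of 40 to 50% GC and in 19.7% where photoreceptors were low. Over all distal regions of these kinds it was in 7.41% and 5.135%.

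Of 46 named called regions, 0 changed direction under any setting. With limma and the deposited scaling this was fixed in advance, because the libraries of the classes did not overlap at called regions. The number that lost the call was 0 with edgeR, 6 with DESeq2, 5 with TMM, 8 with a pseudocount of 0.5 and 10 with the 4 libraries alone. Calls were also lost with 1 library left out. Named regions that were not called (adjusted p = 1.00 with limma) changed sign as follows (log2). With edgeR, TMM, total reads and size factors of the 4 libraries, Rgs9bp was at -0.091, -0.15, -0.23 and -0.16, Vstm2b at -0.0033, -0.014, -0.092 and -0.019, and Grik5 at -0.16, -0.13, -0.21 and -0.14. Rgs9bp was at -0.010 with promoter size factors, and Gnao1 at -0.026 and Pcdh17 at -0.068 with total reads. With 1 library left out, values ranged from -0.031 to 0.59 at Gnao1 and from -0.12 to 1.23 at Rgs11 (lowest without ON-BC replicate 1 in both), from -0.38 to 0.51 at Rgs9bp (-0.38 without ON-BC replicate 1 and -0.16 without OFF-BC replicate 2), from -1.48 to 0.017 at Lhx3 (highest without OFF-BC replicate 2), from -0.27 to 0.74 at Pcdh17 (lowest without ON-BC replicate 2), and from -0.13 to 0.32 at Grik5 (lowest without OFF-BC replicate 1). The shared replicate numbers also mark a shared age. Deviations of replicate 1 from the group mean correlated at 2.00e-04 between ON-BCs and OFF-BCs, taken across the tested regions, with 2 libraries per class. A fit with the replicate number as a block called 8425 regions (61.0% higher in ON-BCs).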
